A study of Homo sapiens with 9 samples.

Results

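The 8 genes NDRG1, MXI1, ANKRD37, CITED2, AK4, ZNF395, RORA and FAM162A were taken by symbol from the table of read counts, where they are 8 of 60591 rows. All 8 passed the filter on low counts and were among the 15944 genes tested. Their mRNA was measured in uCaco-2, the undifferentiated and proliferating form of Caco-2, a human colon adenocarcinoma cell line. The 3 conditions had 3 libraries each, and every culture received 0.5% DMSO for 24 h. Control cells received nothing else, CoCl2 cells received 300 μM cobalt (II) chloride, and OD cells (named Oxy in the labels) received 5 μM of the oxyquinoline derivative 4896-3212. All libraries come from 1 cell line, and the labels name no group kept at low oxygen.

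Hypoxia-inducible factor (HIF) is a transcription factor made of an oxygen-regulated α subunit and the stable partner ARNT. Prolyl hydroxylases of the EGLN family mark the α subunit for destruction when oxygen is present, and cobalt ions or inhibitors of these enzymes spare it. HIF then binds short hypoxia response elements and recruits the coactivators CBP and p300. Many of its targets serve glycolysis and angiogenesis, whereas others adjust or restrain the response itself. Among the 8 genes, CITED2 competes with HIF for p300, MXI1 opposes MYC, RORA and ZNF395 encode transcription factors, NDRG1 encodes a stress-responsive cytoplasmic protein, ANKRD37 encodes a small ankyrin repeat protein, and AK4 and FAM162A encode mitochondrial proteins.

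The sequence before the start site is shown for 3 of the 4 genes whose window at the main start holds the core letters of the hypoxia response element. That of AK4, the other one, lies in part within exons of another AK4 transcript and is not printed. RefSeq windows on GRCh38.p14, with 250 bases before and 50 after a start site, were searched for ACGTG and GCGTG on both strands. Of 35116 such windows of all genes, 48.4% held either motif, 21.4% held ACGTG and 7.26% held CACGTG, the palindrome that contains ACGTG on both strands and is also the E-box of the MAX network. A window was matched for 6 of the 8 genes, MXI1, ANKRD37, CITED2, AK4, RORA and FAM162A, and 4 of these 6 held a motif in the window nearest the main annotated start. Capitals mark the motif on either strand in the stretch from 250 to 31 bases before the start site, written 5′ to 3′ on the strand of the gene. The stretches are chr4:185396591-185396810 on the plus strand for ANKRD37, chr6:139374679-139374898 on the minus strand for CITED2 and chr3:122383932-122384151 on the plus strand for FAM162A. That of ANKRD37 lies inside its annotated gene, which begins at 185396021, so another of its transcripts starts upstream of the stretch.
ANKRD37: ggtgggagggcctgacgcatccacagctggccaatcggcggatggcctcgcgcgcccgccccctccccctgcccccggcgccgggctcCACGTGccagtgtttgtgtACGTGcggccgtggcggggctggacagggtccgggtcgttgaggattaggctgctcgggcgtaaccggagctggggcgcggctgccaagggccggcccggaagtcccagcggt
CITED2: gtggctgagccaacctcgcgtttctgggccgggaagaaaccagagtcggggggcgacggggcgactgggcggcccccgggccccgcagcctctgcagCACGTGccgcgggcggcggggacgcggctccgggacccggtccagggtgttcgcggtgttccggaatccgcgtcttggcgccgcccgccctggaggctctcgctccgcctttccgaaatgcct
FAM162A: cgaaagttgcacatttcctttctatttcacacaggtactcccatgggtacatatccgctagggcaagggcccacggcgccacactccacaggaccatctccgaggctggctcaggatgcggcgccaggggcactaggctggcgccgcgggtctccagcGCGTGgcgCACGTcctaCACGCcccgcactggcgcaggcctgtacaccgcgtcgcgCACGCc
ANKRD37 held CACGTG beginning 162 bases before its start site and a further ACGTG at 143 bases. CITED2 held 1 CACGTG, beginning 153 bases before the start. FAM162A held GCGTG at 92 bases, ACGTG on the opposite strand at 84 bases and GCGTG on the opposite strand at 75 and 36 bases. The AK4 window nearest its main start held GCGTG at 177, 68 and 11 bases and no ACGTG, whereas 2 of its other 3 windows held ACGTG. The MXI1 window nearest its main start held neither motif, while each of its other 2 windows held 2. The only RORA window of the reference lies 601772 bases from the main annotated start and held neither motif. A match in these letters describes the sequence and does not show a bound site.

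The levels are CPM, that is, counts scaled to a common library total with the TMM composition factors of edgeR, and they follow the number of reads from each gene without correction for its length. Total counts were 15998136 to 18298190 in control, 16286502 to 24209427 in CoCl2 and 16387054 to 19623776 in OD libraries. The TMM factors were 1.11 to 1.12 in control, 0.770 to 0.795 in CoCl2 and 1.14 to 1.15 in OD libraries, so the CoCl2 comparisons depend on the scaling, and the values without TMM are given where a direction flips. The epithelial markers EPCAM, CDH1, KRT8, KRT18 and CDX2 were read in every condition, at means from 53.7 CPM for CDX2 in control to 6339 CPM for KRT8 with CoCl2. VIL1, the microvillar protein villin, had means of 613, 112 and 454 CPM in control, CoCl2 and OD, and LGALS4 was low, at means of 0.337, 1.19 and 0.947 CPM. LGALS4 was called higher with CoCl2 (log2 fold change 1.66, SE 0.675, edgeR adjusted p = 0.036), with 33 counts in 1 CoCl2 library against 6 and 12 in the others. Of the markers of other cell types, PTPRC and DCN were at 0 counts in all control libraries and at 0 to 3 in the treated ones. LYZ had means of 34.6 to 51.5 CPM, COL1A1 of 10.2 to 21.7, COL3A1 of 3.89 to 8.35 and PECAM1 of 1.37 to 2.35 CPM. PDGFRB had means of 4.79, 0.932 and 5.83 CPM in control, CoCl2 and OD. The part of these markers in the results was not tested. In bulk RNA, fewer cells of a type and less RNA per cell cannot be told apart.

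**Figure D1:**
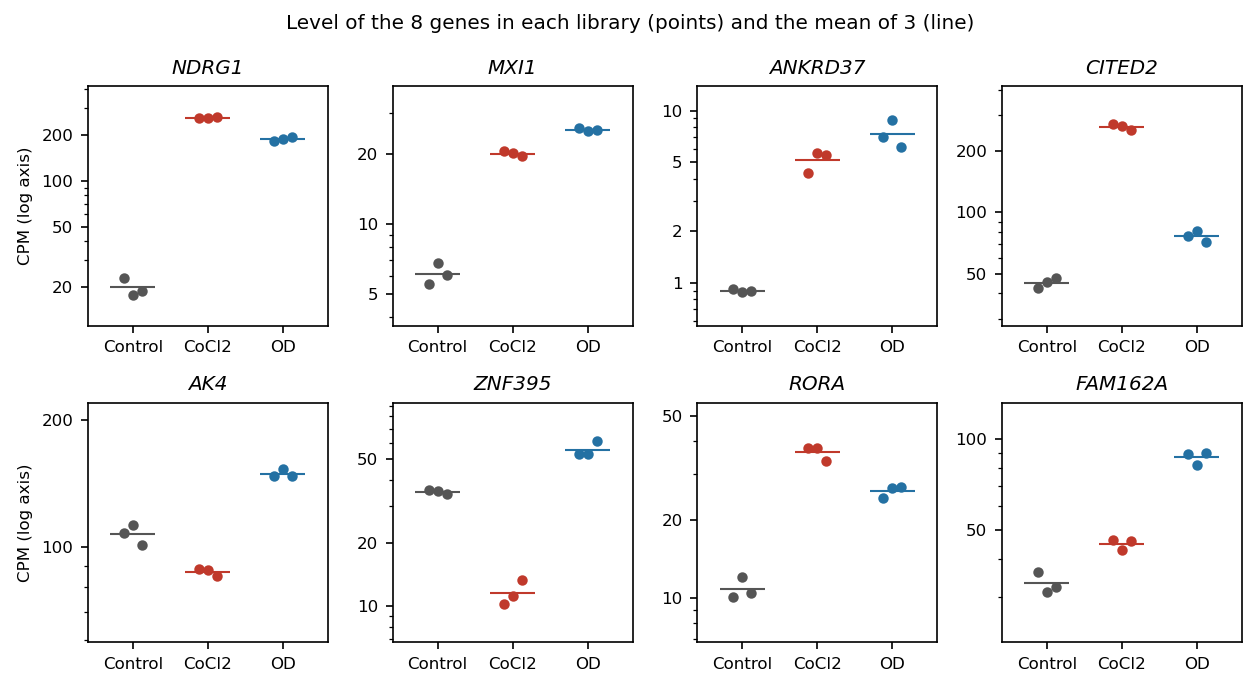
Level of each gene in CPM (vertical axis, logarithmic, with its own range for each gene) in the 3 control, 3 CoCl2 and 3 OD libraries. Points are libraries and lines are means of 3, and with TMM scaling no 2 conditions overlap in any of the 8 genes. The same held for 83.4% of all tested genes in CoCl2 against control, 68.0% in OD against control and 83.8% in CoCl2 against OD.

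With CoCl2, 5 of the 8 genes (NDRG1, CITED2, ANKRD37, RORA and MXI1) were called higher and ZNF395 was called lower. With OD, 5 of the 8 (NDRG1, ANKRD37, MXI1, FAM162A and RORA) were called higher and all 8 log2 fold changes were above 0. A gene was called where its adjusted p lay below 0.05 and its log2 fold change exceeded 1 in either direction, by the quasi-likelihood test of edgeR on all 9 libraries with Benjamini-Hochberg adjustment over the 15944 genes. Over the whole table, the share called higher was 19.9% and the share called lower 23.4% with CoCl2, against 9.09% and 4.16% with OD. The median log2 fold change of the 8 genes was 1.72 with CoCl2 and 1.32 with OD, against -0.049 and -0.010 for all tested genes. By the adjusted p alone, 8 of 8 passed in both comparisons, but so did 83.2% of all genes with CoCl2 and 65.6% with OD. The libraries of the 2 groups did not overlap for 8 of 8 genes in both comparisons, as for 83.4% of all genes with CoCl2 and 68.0% with OD. With CoCl2 these shares of all genes are close to that of the 8, so neither measure is a result about the 8 genes. Both comparisons share the control libraries.

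**Figure D2:**
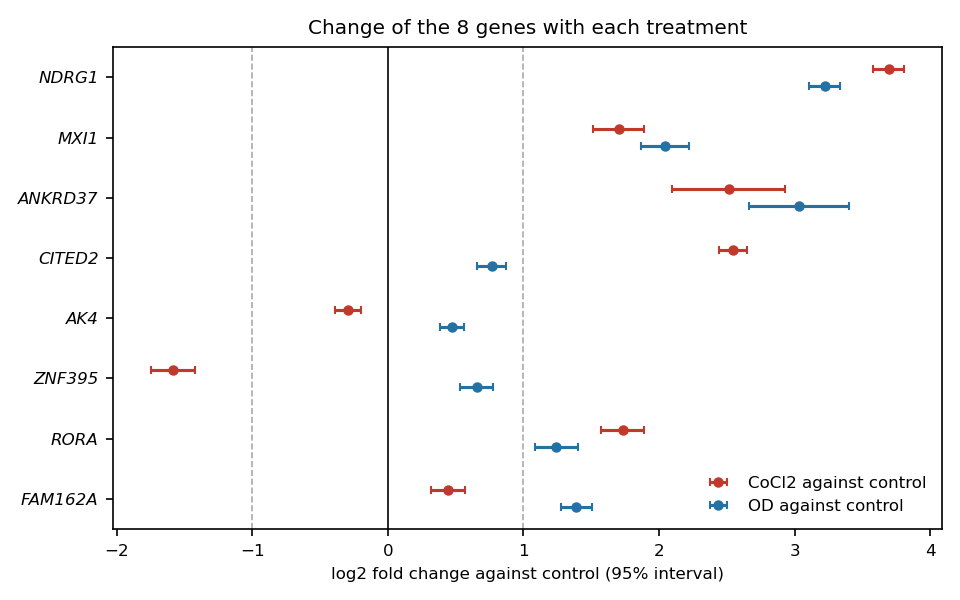
Log2 fold change against control (horizontal axis) with its 95% interval for each gene, for CoCl2 and for OD. Dashed lines mark a log2 fold change of 1 in size, and AK4 is the only gene within those lines in both comparisons.

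CITED2 encodes the transcriptional regulator that competes with HIF for the coactivators CBP and p300. It lies on chromosome 6 at 139371807 to 139374648 on the minus strand (GENCODE 44, GRCh38), and none of its exonic bases is shared with another gene. Its level was 42.5, 45.4 and 47.5 CPM in the control libraries, 272, 265 and 253 CPM with CoCl2, and 76.9, 81.1 and 71.8 CPM with OD. CoCl2 libraries were the highest and control libraries the lowest, and the groups did not overlap. With CoCl2 it rose 5.84-fold, a log2 fold change of 2.55 (SE 0.050, adjusted p = 2.71e-49). With OD the log2 fold change was 0.77 (SE 0.053, adjusted p = 2.74e-20), below the size required for a call. The direct difference was called, with CITED2 3.43-fold higher in CoCl2 than in OD cells (log2 fold change 1.78, SE 0.047, adjusted p = 2.66e-42). It was the only one of the 8 genes called higher in that comparison, where 17.5% of all tested genes were.

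MXI1, a member of the MXD family that pairs with MAX and opposes transcription driven by MYC, lies on chromosome 10 at 110207605 to 110287365 on the plus strand. Its level was 5.54, 6.81 and 6.06 CPM in control, 20.5, 20.1 and 19.6 CPM with CoCl2 and 25.8, 25.1 and 25.3 CPM with OD libraries. OD was the highest group for this gene and control the lowest, without overlap. MXI1 rose 3.25-fold with CoCl2 (log2 fold change 1.70, SE 0.095, adjusted p = 2.57e-25) and 4.13-fold with OD (log2 fold change 2.04, SE 0.088, adjusted p = 4.68e-30). In CoCl2 against OD its log2 fold change was -0.34, with a 95% interval from -0.49 to -0.20.

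RORA encodes a nuclear receptor that activates clock genes such as BMAL1. It spans chromosome 15 from 60488284 to 61229302 on the minus strand. Its level was 10.1, 12.01 and 10.4 CPM in control, 37.8, 37.6 and 33.7 CPM with CoCl2 and 24.3, 26.5 and 26.6 CPM with OD. CoCl2 libraries were above OD libraries and OD above control, with no overlap. RORA rose 3.33-fold with CoCl2 (log2 fold change 1.73, SE 0.079, adjusted p = 1.33e-29) and 2.37-fold with OD (log2 fold change 1.24, SE 0.081, adjusted p = 1.79e-21). The direct difference was 0.49 on the log2 scale (95% interval 0.35 to 0.63) and turned to -0.056 with library size alone.

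ZNF395, a zinc finger transcription factor, was the only gene of the 8 called lower with CoCl2. AK4 also had a negative log2 fold change there (-0.30), below the size required. ZNF395 lies on chromosome 8 at 28345590 to 28402701 on the minus strand. It shares 35.0% of its exonic bases with FBXO16 on the same strand, which held 14 to 58 counts a library. Its level was 35.8, 35.4 and 34.4 CPM in control, 10.3, 11.2 and 13.3 CPM with CoCl2 and 52.9, 52.8 and 60.9 CPM with OD. CoCl2 libraries were the lowest and OD libraries the highest, without overlap. ZNF395 was 3.001-fold lower with CoCl2 than in control (log2 fold change -1.59, SE 0.081, adjusted p = 3.74e-27), whereas with OD the log2 fold change was 0.66 (SE 0.062, adjusted p = 1.40e-14), below the size required. The direct difference was called, with ZNF395 4.73-fold lower in CoCl2 than in OD cells (log2 fold change -2.24, SE 0.076, adjusted p = 2.14e-36).

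NDRG1, a stress-responsive gene named for its repression by N-MYC, had the largest fold change of the 8 with either agent. It lies on chromosome 8 at 133237175 to 133302022 on the minus strand. Its level was 23.2, 17.9 and 18.8 CPM in control, 257, 258 and 260 CPM with CoCl2 and 181, 186 and 192 CPM with OD. The control libraries lay far below both treated groups, and CoCl2 libraries lay above OD libraries. NDRG1 rose 12.95-fold with CoCl2 (log2 fold change 3.69, SE 0.057, adjusted p = 3.20e-54) and 9.34-fold with OD (log2 fold change 3.22, SE 0.057, adjusted p = 6.23e-50). It stood 228th from the highest of 15944 genes with CoCl2 and 59th with OD. The direct difference was 0.47 on the log2 scale (95% interval 0.38 to 0.56), below the size for a call, and turned to -0.075 with library size alone.

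ANKRD37, an ankyrin repeat gene, had the lowest level of the 8 in control cells. It lies on chromosome 4 at 185396021 to 185400628 on the plus strand. Its counts were 17, 18 and 16 in control, 70, 73 and 105 with CoCl2 and 155, 199 and 116 with OD, equal to 0.915, 0.882 and 0.897 CPM, 4.35, 5.65 and 5.51 CPM, and 7.04, 8.83 and 6.18 CPM. Both treated groups lay above control and OD above CoCl2, without overlap. ANKRD37 rose 5.71-fold with CoCl2 (log2 fold change 2.51, SE 0.207, adjusted p = 2.14e-17) and 8.19-fold with OD (log2 fold change 3.03, SE 0.185, adjusted p = 1.04e-22). Its standard errors were the largest of the 8 and its counts the lowest. The difference of CoCl2 from OD was -0.52 (95% interval -0.78 to -0.26). It shares 40.3% of its exonic bases with UFSP2 on the opposite strand, a gene that held 359 to 410 counts in control, 204 to 314 with CoCl2 and 326 to 387 with OD, and the strand setting of the counting is not given in the sources used here.

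AK4, the adenylate kinase of the mitochondrial matrix, was called in none of the 3 comparisons. It lies on chromosome 1 at 65147549 to 65232145 on the plus strand. Its level was 108, 112 and 101 CPM in control, 88.6, 87.8 and 85.4 CPM with CoCl2 and 147, 152 and 147 CPM with OD. CoCl2 libraries were the lowest and OD libraries the highest, and the groups did not overlap. Against control the log2 fold change was -0.30 with CoCl2 (SE 0.048, adjusted p = 1.01e-07) and 0.47 with OD (SE 0.045, adjusted p = 2.11e-14), and CoCl2 against OD gave -0.77 (SE 0.047, adjusted p = 1.82e-23). The AK4 pseudogenes AK4P1 to AK4P6, whose reads can be shared with it, held 0 to 6 counts a library, against 1135 to 3435 for AK4. How reads that fit several genes were counted is not given, so these counts do not show how many were shared.

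FAM162A, a mitochondrial protein with a reported role in hypoxic cell death, rose with OD. It lies on chromosome 3 at 122384161 to 122412334 on the plus strand. Its level was 36.2, 31.2 and 32.4 CPM in control, 46.2, 42.9 and 46.0 CPM with CoCl2 and 89.3, 82.2 and 89.7 CPM with OD. OD libraries were the highest and control libraries the lowest, without overlap. With OD it rose 2.62-fold (log2 fold change 1.39, SE 0.057, adjusted p = 3.15e-31). With CoCl2 the log2 fold change was 0.44 (SE 0.062, adjusted p = 2.85e-09), below the size for a call, and it turned to -0.063 with library size alone. The direct difference was -0.95 (SE 0.056, adjusted p = 4.94e-24), just below the size for a call.

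**Figure D3:**
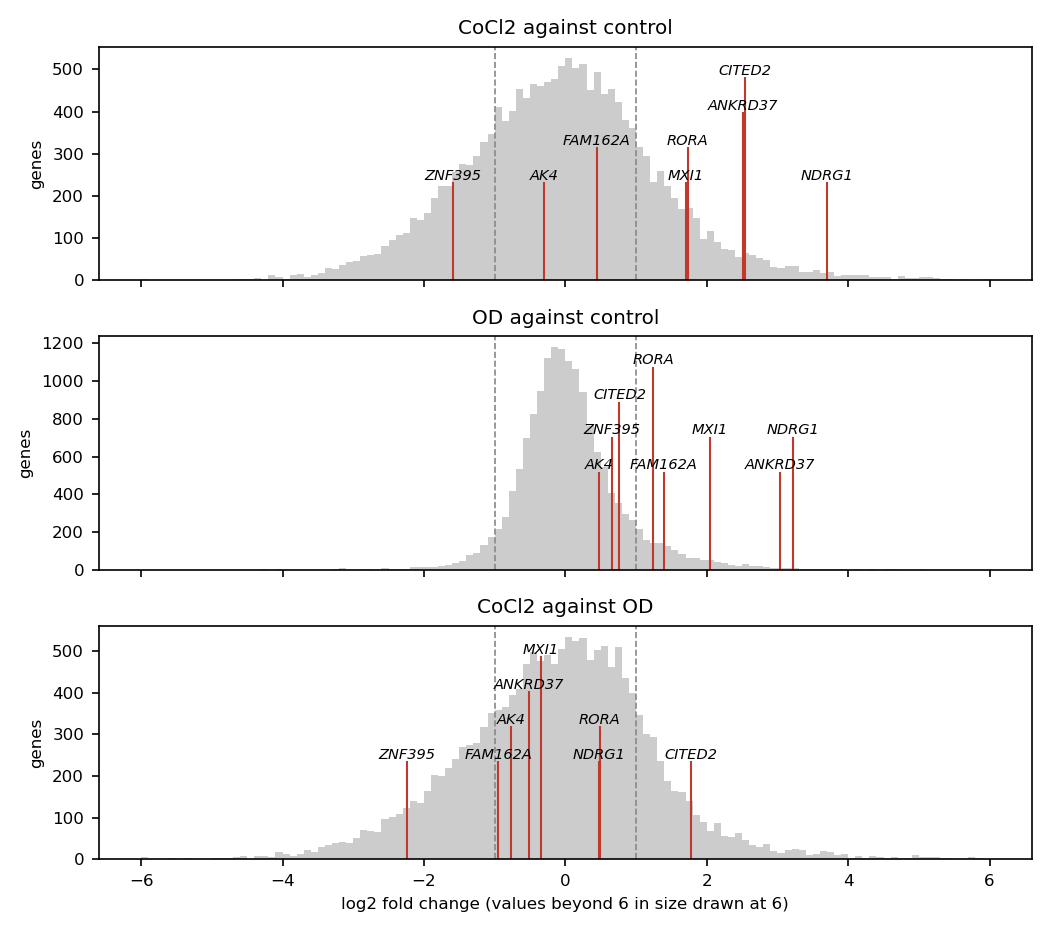
Log2 fold change (horizontal axis) of all 15944 tested genes, drawn as the number of genes per bin, with the 8 genes marked by lines, for the 3 comparisons. In OD against control all 8 lie right of 0, and in CoCl2 against control ZNF395 and AK4 lie left of it.

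Compared directly, CoCl2 and OD cells differed by the call in 2 of the 8 genes, CITED2 higher and ZNF395 lower with CoCl2. The shares of all genes were 17.5% higher and 23.8% lower, so these counts of the 8 do not exceed the background. The other 6 differed by less than the required size, with log2 fold changes from -0.95 for FAM162A to 0.49 for RORA, and the median of the 8 was -0.43 against -0.054 for all genes. By the adjusted p alone 8 of 8 passed, as did 83.5% of all genes, and 8 of 8 had libraries without overlap, as did 83.8%. With library size alone the median of all genes shifted by -0.50 in CoCl2 against control and by -0.54 in CoCl2 against OD, but by 0.039 in OD against control. On that scale 3 of the 24 values of the 8 genes changed sign, FAM162A in CoCl2 against control, and NDRG1 and RORA in CoCl2 against OD.

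**Figure D4:**
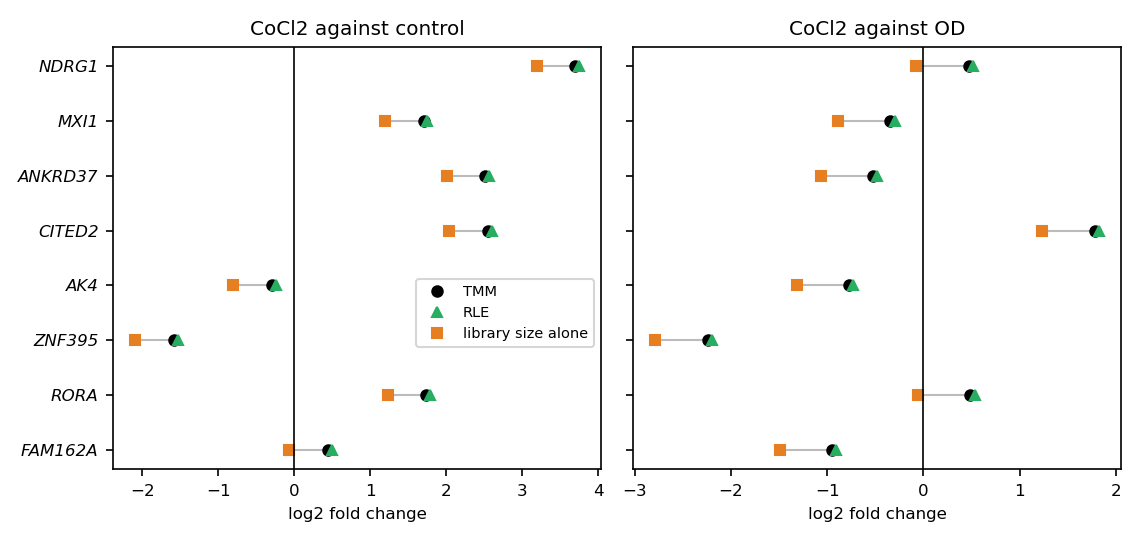
Log2 fold change (horizontal axis) of each gene in CoCl2 against control and in CoCl2 against OD, with TMM, RLE and library size alone. Library size alone moves every gene to the left, by 0.50 in the median of all genes against control and by 0.54 against OD, and FAM162A, NDRG1 and RORA cross 0.

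Levels of different genes were compared as CPM per kilobase of exon, which is a level and not a difference. In control cells the order was CITED2 (17.6), AK4 (14.1), ZNF395 (6.06), FAM162A (2.86), NDRG1 (1.66), MXI1 (1.04), RORA (0.638) and ANKRD37 (0.399), and no neighbours overlapped. With CoCl2 CITED2 was first (103) and NDRG1 second (21.5), ahead of AK4 (11.5), FAM162A (3.88) and MXI1 (3.40). ANKRD37 (2.29), RORA (2.14) and ZNF395 (2.00) closed that order, and each overlapped the next. With OD the order was CITED2 (29.9), AK4 (19.6), NDRG1 (15.5), ZNF395 (9.56), FAM162A (7.50), MXI1 (4.30), ANKRD37 (3.26) and RORA (1.52), without overlap. ZNF395 moved from rank 3 in control to rank 8 with CoCl2. Dividing by the longest transcript instead changed the order with OD, where NDRG1 (46.8), CITED2 (32.2), AK4 (21.3), FAM162A (14.6) and ZNF395 (11.6) then led in that order.

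Of 41 listed relatives and partners, which leave out the 8 and the hypoxia targets, 35 were tested, 11 rose and 6 fell with CoCl2, 6 rose and 1 fell with OD, and 8 were higher and 8 lower in CoCl2 than in OD. Over all genes the shares were 19.9% and 23.4%, 9.09% and 4.16%, and 17.5% and 23.8%, so the counts between the agents are near the background. With library size alone, 5 relatives were called higher and 14 lower with CoCl2. In the network of MAX, the shared partner of MYC and its antagonists, MXI1 was joined by MXD1 and MXD4, antagonists of MYC of the same family. MXD1 had log2 fold changes of 3.35 with CoCl2 and 2.32 with OD, and MXD4 of 2.55 and 1.50, all called. MXD3, of the same family, had -0.86 with CoCl2 and -0.52 with OD, neither called, and reached -1.37 with CoCl2 under library size alone. MAX (1.66) and its dimer partner MGA (1.11) rose with CoCl2. MYCN (-1.78), MYCL (-1.75) and MLXIPL (-3.35), the glucose-responsive factor ChREBP, fell with CoCl2. MYCL held only 11, 9 and 30 counts with CoCl2 and MLXIPL 7, 3 and 4, against 51 to 75 and 45 to 65 in control. MLXIPL rose with OD (1.17), and MYC was called in neither comparison (-0.78 and -0.34), although it reached -1.28 with CoCl2 under library size alone.

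EP300 and CREBBP, the coactivators that CITED2 binds, rose with CoCl2 (log2 fold changes 1.19 and 1.04) and had 0.079 and 0.30 with OD, not called. NR1D1 and NR1D2, the REV-ERB repressors that oppose ROR receptors at clock genes, rose with CoCl2 by 2.75 and 1.42 on the log2 scale, and NR1D1 also with OD (1.04). Of the NDRG family, NDRG2 fell with CoCl2 (-1.09) and NDRG4 rose with OD (2.19), while NDRG3 was not called (-0.43 and -0.45). Among adenylate kinases, AK3, the other mitochondrial matrix enzyme, fell with CoCl2 (-2.37). AK8 rose with CoCl2 (2.71, from 3 to 6 counts in control to 18 to 32) and AK7 fell with OD (-1.26, from 10 to 13 counts to 4 to 6), both on few counts. SLC2A4RG, the zinc finger relative of ZNF395, fell with CoCl2 (-1.13). MGA, EP300, CREBBP and NR1D2 lost the size for a call with CoCl2 under library size alone, at 0.60, 0.69, 0.54 and 0.91.

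The same families were compared between the agents. CoCl2 cells were higher than OD cells in MXD1 (1.04), MXD4 (1.05), MAX (1.16), EP300 (1.11), AK8 (2.33), NR1D1 (1.71) and NR1D2 (1.29) on the log2 scale. They were lower in NDRG2 (-1.40), NDRG4 (-1.82), MLXIPL (-4.52), MYCN (-1.86), MYCL (-1.96), AK1 (-1.28) and AK3 (-1.37). AK1 held few counts, 6 to 12 with CoCl2 and 25 to 36 with OD, and MLXIPL and MYCL were also low with CoCl2. Of the higher calls, MXD1, MXD4, MAX, EP300 and NR1D2 lost the required size with library size alone.

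Of 38 other HIF target genes, 37 were tested, CA9 being the exception. With CoCl2, 26 rose and 1 fell, with a median log2 fold change of 1.32, where 19.9% of all genes were called higher and 23.4% lower. Under library size alone 17 were called higher and 2 lower, as ENO1 (0.66), ENO2 (0.99), LDHA (0.82), HK2 (0.81), PGK1 (0.59), VEGFA (0.72), SLC2A3 (0.54), EGLN1 (0.81) and EGLN3 (0.76) fell short of the size and CA12 reached -1.29. With OD 30 rose, against 9.09% of all genes, with a median of 1.82. By edgeR none was called lower with OD, nor by DESeq2. ADM and HIF3A lay below control with OD at edgeR adjusted p of 1.38e-09 and 0.0265, but short of the required size. The largest with CoCl2 were BNIP3L (4.24), DDIT4 (4.16) and BNIP3 (3.77), and the smallest were HIF3A (-1.61), CA12 (-0.79, not called) and SLC2A1 (0.011, not called, and -0.49 with library size alone). BNIP3 and BNIP3L are mitophagy receptors and DDIT4 restrains mTOR. With OD the largest were LOX (4.69), ANGPTL4 (4.19, 95% interval 3.34 to 5.04, from 1 or 2 counts in each control library) and DDIT4 (4.04). Among the smallest with OD were ADM (-0.46) and HIF3A (-0.33), neither of them called. Between the agents 3 of the 37 were higher and 9 lower in CoCl2, with a median of -0.56, where 17.5% of all genes were higher and 23.8% lower, so the lower count is near the background. The values ran from ADM (3.80), RIOK3 (1.97) and KDM3A (1.33) to LOX (-4.01), PPFIA4 (-2.52) and CA12 (-1.99). KDM3A lost the size for a call with library size alone (0.79).

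The gene closest to each of the 8 was sought by the root mean square difference in log2 CPM, centred on control, over the 9 libraries, among 13421 genes that averaged 1 CPM or more. CITED2 was followed most closely by SDCBP (0.043) and AC003681.1 (0.056), and AK4 by SSH1 (0.052) and TRIM24 (0.059). ZNF395 lay near CORO2A (0.068) and NCKIPSD (0.087), RORA near KDM7A (0.075) and ZNF654 (0.079), and FAM162A near AQP3 (0.078) and FNIP2 (0.086). MXI1 lay near RNF24 (0.088) and TMCC1 (0.13), and ANKRD37 near PLOD2 (0.18) and P4HA1 (0.21), both enzymes of collagen hydroxylation. NDRG1 had the most distant neighbours, YPEL2 (0.33) and TCP11L2 (0.38).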

How the data were processed

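Undifferentiated Caco-2 cells were profiled by stranded, poly(A)-selected mRNA sequencing in 9 libraries, 3 per condition. The authors checked reads with FastQC 0.11.9, trimmed adapters with cutadapt 2.10, mapped on GRCh38 with STAR 2.7.5b and deposited raw counts per gene symbol, without normalization. The counting tool, its strand setting and its treatment of reads that fit several genes are not given in the sources used here. All 9 columns matched the labels, and 0 columns were left unused.

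Counts were analysed with edgeR 4.0.16 in R 4.3.3 (TMM factors, filterByExpr, robust quasi-likelihood fit over all 9 libraries with 1 mean per condition, Benjamini-Hochberg adjustment). The standard error is the log2 fold change divided by the root of F. The fit was tested on counts simulated from the control means, with as many genes raised as lowered. That setting holds no shift in composition like that with CoCl2, so it does not test the scaling. Replicate pairs differed beyond sampling noise (chi-square per degree of freedom 1.74 to 3.05). P-values measure the spread between libraries of 1 cell line. Alternatives were DESeq2 1.42.0, other scalings, filters and thresholds, the replicate block, and each library left out in turn. Coordinates and exon lengths came from GENCODE 44, and start site windows from RefSeq on GRCh38.p14.

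The 8 genes and the gene lists were chosen with earlier results of these data known. Named with values are the 8 genes, the called genes of their families, the 3 highest and 3 lowest hypoxia targets of each comparison, and the 2 genes most like each of the 8. The values of 1 gene under this rule are not reported here. MYC, MXD3, NDRG3, HIF1A, the hypoxia targets that changed with the scaling and the genes of the marker lists were named after their values were seen. The sources used here describe no molecular identifiers, so reads copied by PCR are counted apiece.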

Additional observations from a re-analysis of the deposited data

How the results depend on the processing

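Of 432 values of the 8 genes under 18 alternatives, 414 kept direction and side of the threshold, 15 came to pass it and 3 reversed. All 3 reversals came with library size alone: FAM162A at -0.063 in CoCl2 against control, and NDRG1 at -0.075 and RORA at -0.056 in CoCl2 against OD. That scaling moved the genes called among the 8 in CoCl2 against OD from 2 to 5 (AK4, ANKRD37 and FAM162A joining at -1.32, -1.07 and -1.49) and the hypoxia targets from 12 to 22, and the hypoxia targets called higher in CoCl2 against control from 26 to 17. It also changed the share of calls that were higher from 46.0% to 23.9% in CoCl2 against control and from 42.4% to 18.3% in CoCl2 against OD. Without a count filter FAM162A was also called in CoCl2 against OD. With the adjusted p alone, 8 of the 8 genes passed in OD against control and 8 in CoCl2 against OD, and all genes called went from 6891 to 13260, from 2113 to 10466 and from 6580 to 13311 in CoCl2 against control, OD against control and CoCl2 against OD, the relatives to 32, 28 and 33, and the hypoxia targets in CoCl2 against OD to 35. Testing against a log2 fold change of 1 left 965 genes and 4 relatives in OD against control. Deviations from the condition mean correlated at -0.0049 to 0.038 between libraries of the same replicate number. Other pairs gave -0.047 to 0.025, so the ranges overlap. With a replicate block 6, 5 and 2 of the 8 genes were called, as without it. Neither result settles whether equal numbers mark paired cultures. Leaving out each library in turn changed no call of the 8 genes. The low counts of ANKRD37 in control limit its precision most.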

Other observations

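The HIF subunits and hydroxylases were also read. EPAS1, the HIF-2α subunit, rose with CoCl2 (log2 fold change 1.30, SE 0.047) and with OD (1.11, SE 0.046), and HIF1A was called in neither (0.19 and -0.54). The hydroxylase EGLN1 rose with both agents (1.32 and 1.25), whereas EGLN2 (1.48) and EGLN3 (1.27) rose with CoCl2 and had 0.35 each with OD, not called. EPAS1, EGLN1, EGLN2 and EGLN3 fell below the size for a call with CoCl2 under library size alone (0.80, 0.81, 0.98 and 0.76), and HIF1A turned to -0.31. HIF1AN, the asparaginyl hydroxylase, was lower in CoCl2 than in OD cells (-1.33, SE 0.051), as was HIF3A (-1.28, SE 0.178), and EGLN2 was higher (1.13, SE 0.077), a call lost with library size alone (0.58).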
